A study of Mus musculus with 6 samples.

Results

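The glutathione genes of the mouse ovary at postnatal day 14 were examined in 6 pooled libraries. They were the genes of the soluble glutathione transferase classes (Gsta, Gstk, Gstm, Gsto, Gstp, Gstt and Gstz, of which the kappa class is not cytosolic), the microsomal transferases Mgst1 to Mgst3, the glutathione peroxidases Gpx1 to Gpx8, and Gclc, Gclm, Gss and Gsr, chosen by their symbols. Of 37924 genes in the deposited table, 36 met this rule and 31 of those had a mean level of at least 0.5 FPKM (fragments per kilobase of transcript and per 1e6 mapped fragments) over the 6 libraries. The genes with a lower mean were Gpx2, Gpx5, Gsta1, Gstt4 and Gsto2, and their highest value in any library was 0.868 FPKM, in Gsta1.

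The mice of the 3 cKO libraries carried 2 copies of a floxed allele and the Gdf9iCre transgene. Those of the 3 control libraries also carried 2 copies of the floxed allele, with no Cre in their label. Gdf9iCre places Cre under control of the Gdf9 promoter; Gdf9 is an oocyte growth factor gene, so the deletion is directed to oocytes while RNA was taken from the whole ovary. All mice had the strain label C57BL/6J/129S7/SvEvBrd. Since 3 mice gave 1 ovary each to a library, the error terms below describe variation among pools. In such tissue, fewer cells of a type and less RNA per cell cannot be told apart.

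Glutathione is a tripeptide that cells keep at high concentration as a reductant. Glutamate-cysteine ligase (Gclc and Gclm) and glutathione synthetase (Gss) make it, and glutathione reductase (Gsr) restores it after oxidation. Peroxidases spend it on hydrogen peroxide and lipid peroxides, and transferases join it to reactive compounds such as the aldehydes of lipid oxidation. In the ovary, follicle cells make steroids, a process that yields oxidants, and the alpha and mu transferases are known from steroid-producing cells.

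The estimated depth was 23.3, 22.5 and 24.9 M fragments (M for 1e6) in cKO 1 to 3 and 22.7, 21.6 and 19.6 M in control 1 to 3. At that depth 1 FPKM in a 2 kb transcript equals about 39.19 to 49.85 fragments. Transcripts of the mitochondrial genome held 7.31%, 13.9% and 10.7% of the summed FPKM in cKO 1 to 3. In control they held 11.9% to 14.2%, so cKO 1 was the lowest library. Control 3 and cKO 3 read nearer to the other group in several of these genes, so the main results are also given without them. That choice was made from these same values, so larger changes in such genes are built into those fits. Their adjusted p-values are therefore no separate evidence. The number in the library name begins alike for the 3 controls and cKO 1, and differs for cKO 2 and cKO 3; what it stands for is not stated. All 12 oocyte and all 12 granulosa markers listed had a mean of at least 0.5 FPKM.

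The 7 genes of the mu class lie side by side on chromosome 3, and their likeness decides how far a level can be assigned to 1 of them. The first 60 coding bases are shown for the 6 mu genes whose coding sequence has 654 bases, from the principal transcripts of GENCODE M21 (genome build mm10), 5′ to 3′ along the gene. Capitals mark bases that differ from Gstm1. Gstm5, with a coding sequence of 672 bases, is not shown.
Gstm1: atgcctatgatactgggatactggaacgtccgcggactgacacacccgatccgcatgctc
Gstm2: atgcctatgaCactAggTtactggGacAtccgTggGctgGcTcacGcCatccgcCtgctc
Gstm3: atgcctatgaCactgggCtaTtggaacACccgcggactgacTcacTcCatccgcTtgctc
Gstm4: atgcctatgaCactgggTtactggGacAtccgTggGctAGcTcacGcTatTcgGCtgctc
Gstm6: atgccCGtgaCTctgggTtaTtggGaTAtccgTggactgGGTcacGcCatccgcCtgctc
Gstm7: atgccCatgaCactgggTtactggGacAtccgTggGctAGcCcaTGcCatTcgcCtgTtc

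Over this stretch the other 5 genes differ from Gstm1 at 9 to 16 positions. Over the whole coding sequence, identity ran from 68.0% for Gstm3 with Gstm5 to 89.5% for Gstm1 with Gstm3. Stretches of 50 bases found word for word in a transcript of another gene give a measure of the fragments that could be assigned to either. Such stretches made up 28.8% of Gstm3, 19.9% of Gstm1, 9.74% of Gstm6, 8.30% of Gstm2 and 0.532% of Gstm7, and 0% of Gstm4 and Gstm5. For Gstm6 the main partner was Gstm3, with 5.69%, and for Gstm2 it was the pseudogene Gm12499, with 4.89%, which is listed at 0 in all 6 libraries.

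In cKO ovaries 3 of the 31 glutathione genes rose and 2 fell. Those that rose were the transferase genes Gstm6, Gstm2 and Gsta4. Those that fell were the transferase gene Gsta2 and the peroxidase gene Gpx7. Genes of glutathione synthesis and recycling gave no call. A gene was called at an adjusted p below 0.05 by limma on log2(FPKM + 1), with Benjamini-Hochberg adjustment over all 14934 genes tested. Of the glutathione genes 9.68% rose and 6.45% fell, against 2.24% and 2.09% of all genes tested, or 4.33% in either direction. At an unadjusted p below 0.05, 6 glutathione genes were higher and 5 lower, where 14.5% of all genes were higher and 9.80% lower. The median log2 change of the 31 genes was 0.02, and that of all genes was 0.05. The groups did not overlap for 12 of the 31 genes, 7 of them higher and 5 lower in cKO. This is 38.7% of them, against 30.0% of all genes (18.0% higher and 12.0% lower).

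**Figure D1:**
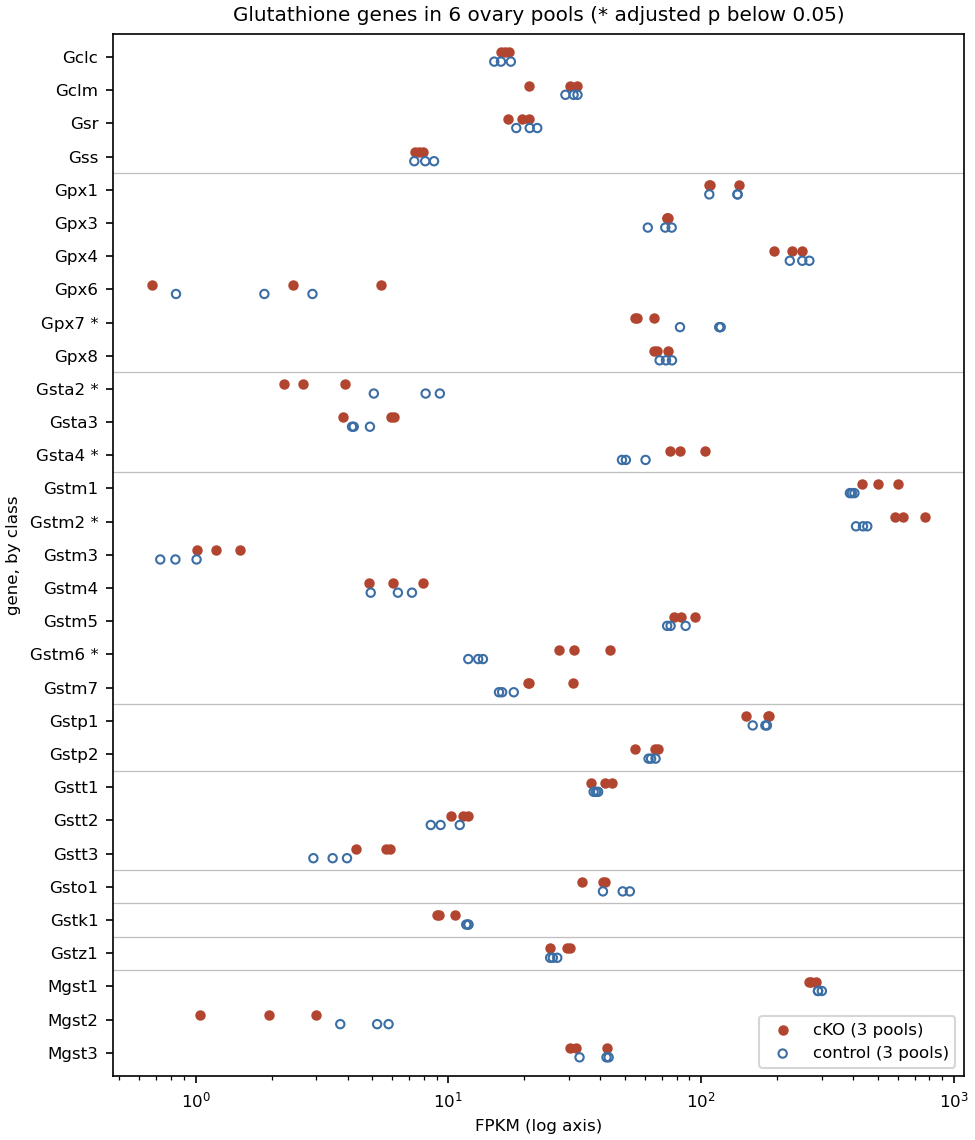
FPKM on a log axis of the 31 glutathione genes, by class. Filled points are the 3 cKO pools and open points the 3 control pools, and an asterisk marks an adjusted p below 0.05. Single pools span from Gpx6 in cKO 1, at 0.670 FPKM, to Gstm2 in cKO 1, at 770 FPKM.

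Of the 31 genes, the mu class held the most abundant, Gstm2, and the one with the largest rise, Gstm6. Its summed level was 1532, 1158 and 1289 FPKM in cKO 1 to 3, against 917, 965 and 954 FPKM in control 1 to 3. That was 0.276%, 0.208% and 0.216% of the summed FPKM of all genes in cKO, against 0.15%, 0.154% and 0.160% in control. Each of its 7 genes had a positive log2 change, from 0.02 in Gstm4 to 1.31 in Gstm6, as did 58.5% of all genes tested. Gstm4 was at -0.05 with libraries centred on their median and at -0.07 after quantile normalisation. In 5 of the 7 genes the groups did not overlap, with cKO higher, as in 18.0% of all genes.

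Gstm6 (ENSMUSG00000068762, mm10 chr3:107938847-107943749, minus strand) encodes a mu-class transferase. It measured 43.7, 27.5 and 31.5 FPKM in cKO 1 to 3, against 12.0, 13.1 and 13.7 FPKM in control 1 to 3. All cKO libraries were above all controls, and cKO 1 was the highest. The log2 change was 1.31 (standard error 0.16, adjusted p = 0.0147). Gstm3, which shares most with it, was at or below 1.49 FPKM in all 6 libraries.

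Gstm2 (ENSMUSG00000040562, chr3:107981702-107986453, minus strand) was the most abundant of all 31 genes per length. It measured 770, 586 and 632 FPKM in cKO 1 to 3, against 410, 437 and 455 FPKM in control 1 to 3, with no overlap. The log2 change was 0.60 (standard error 0.12, adjusted p = 0.0374). Cytosolic transferases of this class work as pairs of subunits, and Gstm1 and Gstm2 are the main mu subunits at the RNA level here.

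Gstm1 measured 599, 434 and 503 FPKM in cKO 1 to 3, against 395, 404 and 388 FPKM in control 1 to 3. The groups did not overlap, and cKO 2 was close to the controls. Its log2 change of 0.36 had an adjusted p of 0.129, short of the threshold. Gstm7, next to Gstm6 in the cluster, measured 31.0, 20.8 and 20.9 FPKM in cKO, against 15.9, 16.3 and 18.2 FPKM in control, and its log2 change of 0.48 had an adjusted p of 0.117. Here cKO 1 stood above the other cKO libraries.

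Gstm3 was near the limit of use, at 1.49, 1.01 and 1.20 FPKM in cKO and 1.01, 0.833 and 0.725 FPKM in control. Its lowest cKO and highest control values, 1.0105 and 1.0095 FPKM, were almost equal. Gstm5, a mu gene known from testis and brain, measured 85.4 ± 8.38 FPKM in cKO and 78.7 ± 7.19 FPKM in control (SD, n = 3 each). Gstm4 measured 6.28 ± 1.55 FPKM in cKO and 6.14 ± 1.13 FPKM in control. Adjusted p-values from limma were 0.293, 0.526 and 0.965 for these 3 genes.

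**Figure D2:**
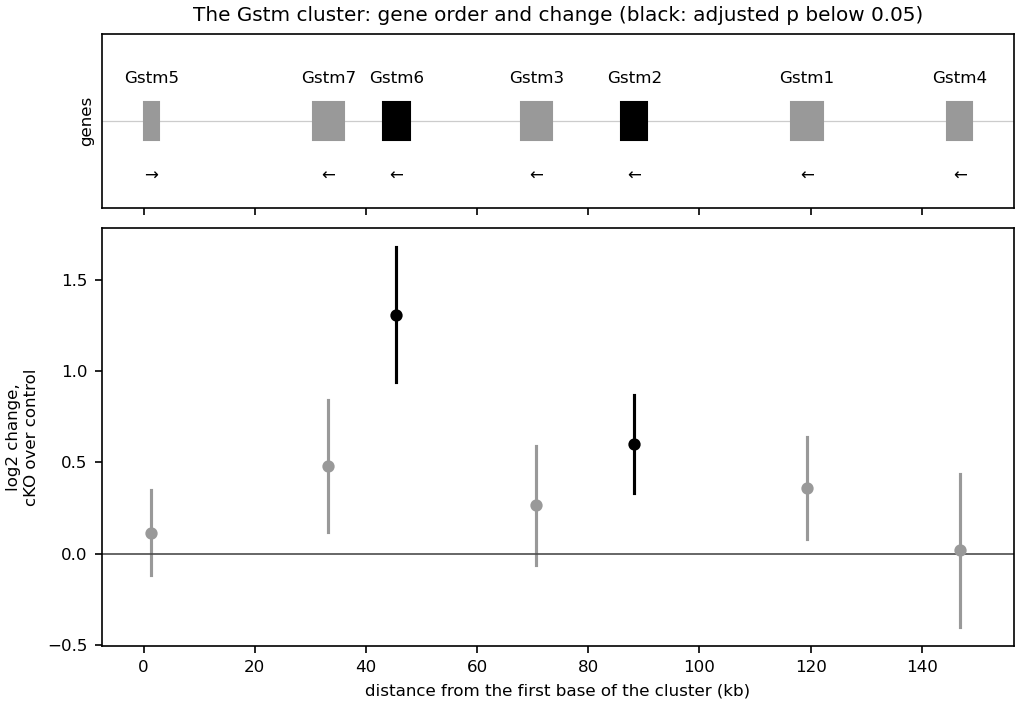
Upper panel, the 7 Gstm genes by distance in kb from the first base of the cluster, with arrows for the direction of transcription. Lower panel, the log2 change of each gene, cKO over control, with its 95% interval; black marks an adjusted p below 0.05. Gstm6 and Gstm2, 43.0 and 85.9 kb from the first base, are the genes that passed, and Gstm5 and Gstm4 at the ends have values near 0.

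The cluster spans 149 kb. Gstm7 and Gstm6 are 7.03 kb apart, with log2 changes of 0.48 and 1.31. Differences between genes of the cluster were not tested.

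In the alpha class 1 gene rose and 1 fell. Gsta4 (ENSMUSG00000032348, chr9:78182774-78209349, plus strand) encodes the transferase known for clearing 4-hydroxynonenal, an aldehyde of lipid oxidation. It measured 104, 75.7 and 82.6 FPKM in cKO 1 to 3, against 48.6, 50.4 and 60.3 FPKM in control 1 to 3. All cKO libraries were above all control libraries, and the highest control was control 3. The log2 change was 0.70 (standard error 0.13, adjusted p = 0.0374). No stretch of 50 bases of Gsta4 was shared with another gene.

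Gsta2 (ENSMUSG00000057933, chr9:78331018-78355788, minus strand) was lower in each cKO library than in any control. It measured 2.66, 2.23 and 3.90 FPKM in cKO 1 to 3, against 9.26, 8.14 and 5.07 FPKM in control 1 to 3. Control 3 and cKO 3 were the closest to each other. The log2 change was -1.10 (standard error 0.23, adjusted p = 0.0438). The coding sequences of Gsta2 and Gsta1 were 97.6% identical, and 47.4% of the 50-base stretches of Gsta2 were shared, most with Gsta1 and Gm10639, so its level is uncertain. Gsta1 measured 0.239, 0.217 and 0.406 FPKM in cKO and 0.868, 0.443 and 0.303 FPKM in control. Gm10639 measured 1.42, 0.977 and 1.03 FPKM in cKO and 1.21, 1.11 and 2.89 FPKM in control. Both of these partners stayed below Gsta2 in every library. A further partner, Gm3776, held 28.2% of the stretches of Gsta2, and no level is given for it here.

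Gsta4 and Gsta2 lie in 1 region of chromosome 9 with Gsta1 between them, and Gclc lies 388 kb before Gsta4. Gsta3, on chromosome 1, encodes an alpha transferase that can also isomerise steroid intermediates. It measured 5.94, 3.83 and 6.11 FPKM in cKO, against 4.23, 4.16 and 4.90 FPKM in control, with an adjusted p of 0.502. The groups overlapped, since cKO 2 was the lowest library of the 6.

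Transferases of the remaining classes gave no call. The pi genes Gstp1 and Gstp2 measured 173 ± 19.3 and 62.8 ± 7.12 FPKM in cKO, against 174 ± 12.1 and 63.8 ± 2.08 FPKM in control (SD, n = 3 each). Their coding sequences were 98.1% identical and 51.0% of the 50-base stretches of Gstp1 occur in Gstp2, so the split between them is uncertain. The 95% interval of the log2 change ran from -0.25 to 0.23 for Gstp1 and from -0.25 to 0.19 for Gstp2. Their signs turned with mitochondrial transcripts left out, to 0.05 and 0.03.

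In the theta class Gstt3 measured 5.89, 4.32 and 5.67 FPKM in cKO, against 3.49, 2.93 and 3.97 FPKM in control. The groups did not overlap, and the log2 change of 0.49 had an adjusted p of 0.090. Part of Gstt3 is also annotated as Gm20441 on the same strand. Gstt1, the most abundant theta gene, measured 41.6, 36.6 and 44.2 FPKM in cKO and 37.6, 38.4 and 39.2 FPKM in control. Gstt2 measured 11.4, 10.3 and 11.9 FPKM in cKO and 8.52, 9.32 and 11.1 FPKM in control. Adjusted p-values were 0.607 and 0.319 by limma, and both genes overlapped between groups.

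Gsto1, of the omega class, whose enzymes reduce dehydroascorbate and methylated arsenic, measured 41.1, 33.8 and 41.5 FPKM in cKO, against 49.0, 52.3 and 40.9 FPKM in control. Control 3 was within the cKO range, and the adjusted p was 0.205. Gstk1, a transferase of mitochondria and peroxisomes, measured 10.6, 9.16 and 9.01 FPKM in cKO, against 12.0, 12.0 and 11.8 FPKM in control. Its groups did not overlap, and its log2 change of -0.29 had an adjusted p of 0.103. Gstz1, which also acts in tyrosine breakdown, measured 30.2, 25.2 and 29.4 FPKM in cKO, against 25.3, 25.9 and 27.0 FPKM in control, at an adjusted p of 0.494. It shares exon sequence with Pomt2 on the opposite strand, and the strand setting is not given in the sources used here.

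The microsomal transferases belong to another protein family, the MAPEG membrane proteins. Mgst1, the most abundant of them, measured 271, 267 and 285 FPKM in cKO, against 290, 301 and 290 FPKM in control. The groups did not overlap, while the log2 change was only -0.10, with a 95% interval from -0.26 to 0.07 and an adjusted p of 0.442. Mgst2, whose enzyme can make leukotriene C4, measured 1.95, 1.04 and 2.99 FPKM in cKO, against 5.80, 5.23 and 3.74 FPKM in control. Its log2 change of -1.02 missed the threshold, with an adjusted p of 0.066. With 1 library left out, the adjusted p ran from 0.0505 to 0.234. With control 3 and cKO 3 left out, the log2 change of Mgst2 was -1.41, with an adjusted p of 0.0454. Those libraries were picked from values of these genes, so a larger change is built in and no call is drawn from that fit. Mgst3 measured 30.4, 31.9 and 42.5 FPKM in cKO, against 42.2, 43.1 and 33.1 FPKM in control, and cKO 3 and control 3 each read like the other group. Its log2 change of -0.18 had an adjusted p of 0.518. Without those 2 libraries it was -0.44, with an adjusted p of 0.0675 and the same limit.

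**Figure D3:**
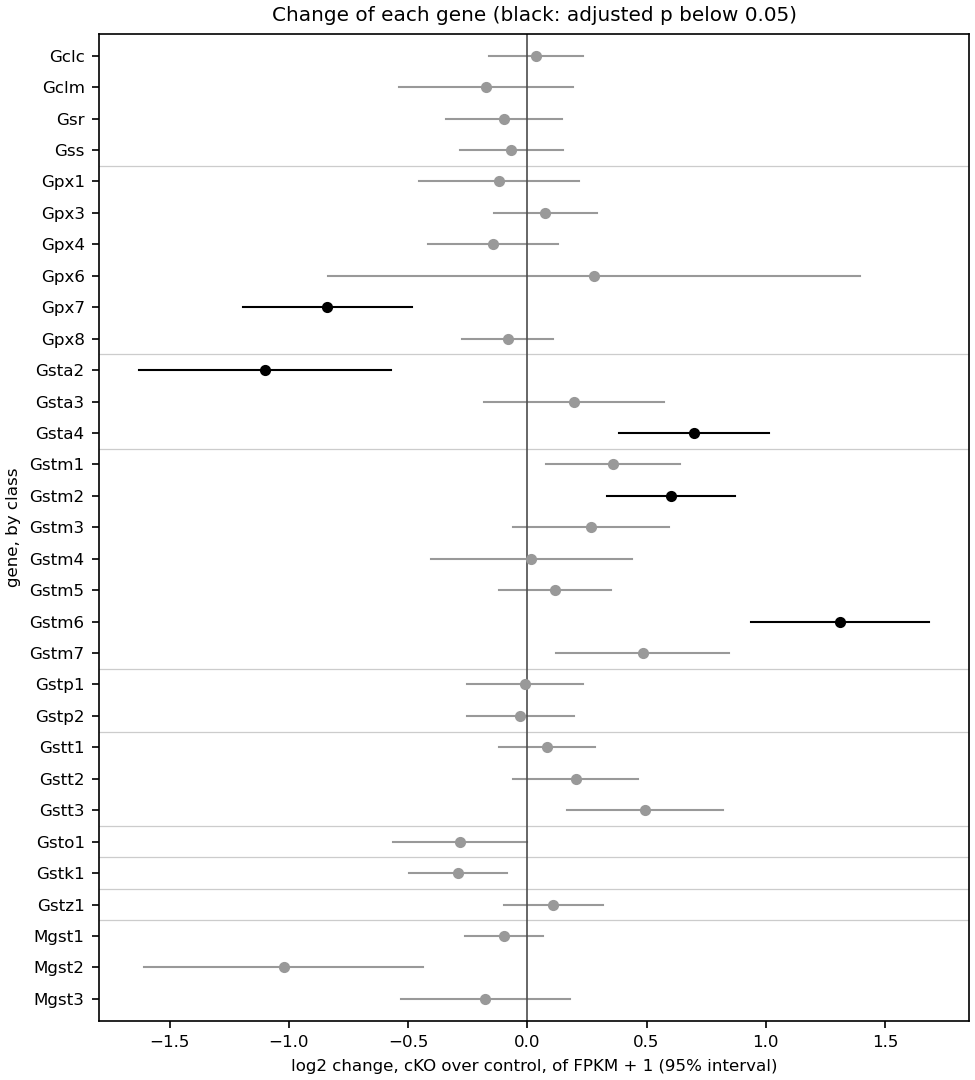
Log2 change of each of the 31 genes, cKO over control, of FPKM + 1, with its 95% interval from limma. Black marks the 5 genes with an adjusted p below 0.05: Gpx7 and Gsta2 lie left of 0, and Gsta4, Gstm2 and Gstm6 lie right of it.

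The peroxidases differ at their active site, which sets what each needs to work. In the members that are selenoproteins the codon TGA, read elsewhere as a stop, gives selenocysteine, and in the others a cysteine codon stands in its place. The codon is shown in capitals with its flanking coding bases, from GENCODE M21 on mm10. The TGA codons of Gpx1, Gpx3 and Gpx4 are annotated there as selenocysteine.
Gpx1: gtcgcgtctctcTGAggcaccacgatccgg
Gpx3: gtagccagctacTGAggtctgacagaccaa
Gpx4: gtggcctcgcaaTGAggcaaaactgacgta
Gpx6: gtggcatccttcTGTggcctgacagctacg
Gpx7: gtagctagcgaaTGTggcttcacagaccag
Gpx8: gtggctagtgacTGCcgcttcacagacaag

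Among the 6 peroxidase genes tested, Gpx7 fell and the other 5 gave no call. Gpx7 (ENSMUSG00000028597, chr4:108400390-108406961, minus strand) encodes a cysteine peroxidase of the endoplasmic reticulum that can pass oxidation on to protein disulfide isomerase. It measured 54.9, 55.8 and 65.0 FPKM in cKO 1 to 3, against 120, 118 and 82.5 FPKM in control 1 to 3. All cKO libraries were below all controls, and control 3 lay between the other controls and cKO. The log2 change was -0.84 (standard error 0.15, adjusted p = 0.0338). No stretch of 50 bases of Gpx7 was shared with another gene.

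Gpx8, the other peroxidase of the endoplasmic reticulum and 53.4% identical to Gpx7 in coding sequence, measured 68.6 ± 4.60 FPKM in cKO and 72.6 ± 4.09 FPKM in control (SD, n = 3 each). Its log2 change was -0.08, with a 95% interval from -0.27 to 0.11. The 95% intervals of Gpx7 and Gpx8 did not meet, and the difference between the genes was not tested. Gpx6, whose selenium-free form in mouse is known from the olfactory organ, varied within each group, at 0.670, 2.43 and 5.41 FPKM in cKO and 1.87, 2.90 and 0.837 FPKM in control. Its adjusted p was 0.762.

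The selenoprotein peroxidases gave no call. Gpx4, which reduces lipid peroxides in membranes and is known to block ferroptosis, measured 194, 251 and 230 FPKM in cKO, against 268, 251 and 224 FPKM in control. Its groups overlapped, and the log2 change was -0.14, with a 95% interval from -0.42 to 0.13. Of its 50-base stretches 51.4% also occur in the pseudogene Gpx4-ps2. Gpx1, the peroxidase of the cytosol and mitochondria, measured 107, 108 and 141 FPKM in cKO and 139, 140 and 108 FPKM in control. Gpx1 was lowest in control 3 among controls and highest in cKO 3 among cKO, and its log2 change of -0.12 had an adjusted p of 0.658. Without control 3 and cKO 3 it was -0.37, with an adjusted p of 0.0730, a larger change that the choice of libraries builds in. Gpx3, secreted into body fluids, measured 73.6 ± 0.653 FPKM in cKO and 70.1 ± 7.70 FPKM in control (SD, n = 3 each), with a log2 change of 0.07 and an adjusted p of 0.663.

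Synthesis and recycling of glutathione showed no called change. Gclm, the modifier subunit of glutamate-cysteine ligase, measured 30.2, 20.8 and 32.2 FPKM in cKO, against 29.1, 31.3 and 32.4 FPKM in control. The low value belonged to cKO 2 alone, and the adjusted p was 0.536. Gsr measured 19.3 ± 1.83 FPKM in cKO and 20.7 ± 1.97 FPKM in control (SD, n = 3 each), with an adjusted p of 0.609 by limma. Gclc, the catalytic subunit, measured 16.8 ± 0.610 FPKM in cKO and 16.3 ± 1.25 FPKM in control, and Gss measured 7.65 ± 0.277 FPKM in cKO and 8.07 ± 0.723 FPKM in control (SD, n = 3 each). Of the log2 changes of these 4 genes, the widest 95% interval was that of Gclm, from -0.54 to 0.19. The interval of Gclc ran from -0.16 to 0.23. Both Gss and Gclm overlap exons of antisense genes.

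**Figure D4:**
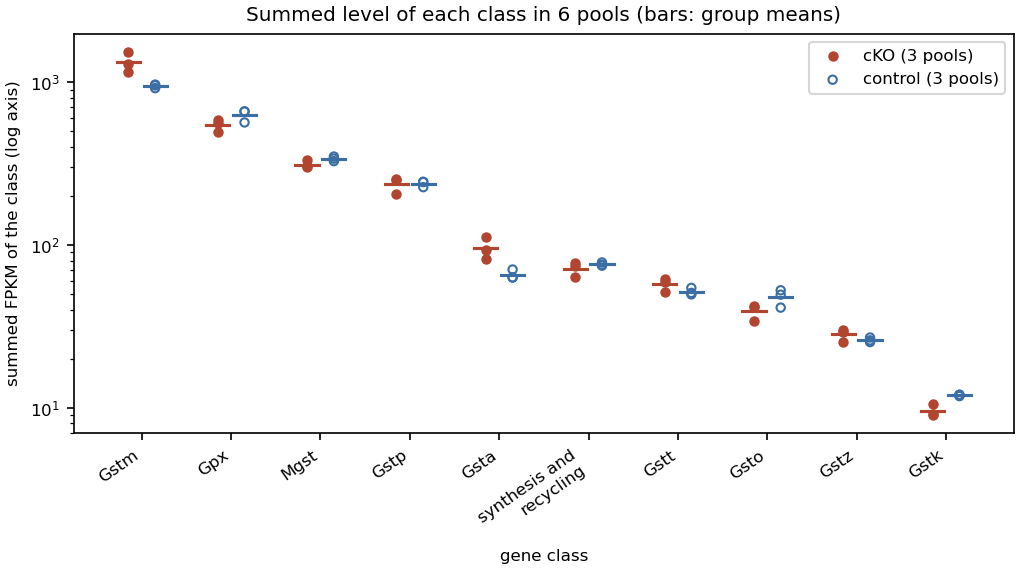
Summed FPKM of each class (log axis) in the 3 cKO pools (filled) and the 3 control pools (open), with bars for the group means. The mu class, at 1158 to 1532 FPKM in cKO and 917 to 965 FPKM in control, and the alpha class have all cKO pools above the controls. The kappa class, which is Gstk1 alone, lies below them. Most of the mu sum is Gstm2 and Gstm1. Most of the alpha sum is Gsta4, at 104 of 112 FPKM in cKO 1, and Gsta2 of that class fell.

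The calls depended on single libraries. With cKO 1, control 1 or control 2 left out, no glutathione gene passed by limma. At an unadjusted p below 0.05, 6 were then higher and 4 lower without cKO 1, 4 and 4 without control 1, and 6 and 4 without control 2. The share of all genes at that unadjusted p was not taken for these fits, so these counts have no background. In the main fit that share was 14.5% higher and 9.80% lower. Among all genes, 0 rose and 2 fell without cKO 1, 1 and 4 without control 1, and 0 and 2 without control 2. Without cKO 2 or without cKO 3, Gstm6 rose and no glutathione gene fell. Without control 3, Gstm6 and Gsta4 rose and Gpx7 and Gsta2 fell. The 5 genes called kept their direction in each of the 17 alternative fits. With 1 library left out, the log2 change ran from 1.13 to 1.45 for Gstm6, from 0.49 to 0.68 for Gstm2, from 0.57 to 0.79 for Gsta4, from -1.32 to -0.95 for Gsta2 and from -1.01 to -0.75 for Gpx7.

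Control 3 and cKO 3 were picked from values of these genes, which favours larger changes once they are left out. Without both, Gpx7 and Gsta2 fell by 1.09 and 1.49 on the log2 scale. Adjusted p-values were 0.0158 and 0.0208 by limma. Gstm6, Gsta4 and Gstm2 then had log2 changes of 1.40, 0.83 and 0.66 and missed the threshold, with adjusted p-values of 0.0508, 0.0701 and 0.0848. Among libraries whose names begin alike, cKO 1 against the 3 controls, Gstm6 rose by 1.68 at an adjusted p of 0.0473, taking the single cKO library to be as variable as the control pools. There Gstm2, Gsta4, Gpx7 and Gsta2 had log2 changes of 0.83, 0.96, -0.93 and -1.18 and did not pass. The other name range holds cKO libraries only.

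Genes that supply, spend or control glutathione and related thiols were taken from 8 further lists. Of 91 tested, 3 rose and 2 fell, or 3.3% and 2.2%, near the 2.24% and 2.09% of all genes. With 1 library left out, 0 to 3 rose and 0 to 2 fell. With libraries centred on their median, 1 rose and 6 fell, while of all genes 254 rose and 577 fell. The median log2 change was 0.00 over the lists and 0.05 over all genes.

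In the list for glutathione supply and turnover 2 of 18 tested genes (11.1%) rose and none fell, against 2.24% and 2.09% of all genes. Anpep, an aminopeptidase of the cell surface that can split the dipeptide left after glutathione is cleaved, measured 16.7, 15.2 and 12.95 FPKM in cKO, against 8.32, 7.62 and 9.27 FPKM in control. Its log2 change was 0.76 at an adjusted p of 0.0240. Oplah, the oxoprolinase that returns glutamate from the same cycle, measured 15.4, 17.0 and 14.2 FPKM in cKO, against 10.8, 11.4 and 10.3 FPKM in control, with a log2 change of 0.48 and an adjusted p of 0.0374. Both genes had groups that did not overlap.

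Among 20 genes of the list for NRF2, the transcription factor of the antioxidant response, 1 rose and 1 fell. That is 5% each way, against 2.24% and 2.09% of all genes. The other genes of the list did not pass. For Nqo1, Hmox1, Txnrd1 and Srxn1, whose groups overlapped, limma gave adjusted p-values of 0.663, 0.333, 0.442 and 0.338. Osgin1 came nearest to the threshold, at a log2 change of 0.44 (adjusted p = 0.0519). Maff was next, at -0.49 (adjusted p = 0.0671). With no overlap of the groups, 4 genes of the list were higher in cKO and 3 lower. This is 35% of the list, against 30.0% of all genes (18.0% higher and 12.0% lower). Ugt1a6a, a glucuronosyl transferase gene, measured 4.49, 4.09 and 2.93 FPKM in cKO, against 2.20, 1.37 and 1.72 FPKM in control, at an adjusted p of 0.0459. The Ugt1a genes share their last exons, so their split is uncertain. Ephx1, the microsomal epoxide hydrolase, measured 29.3, 29.7 and 26.4 FPKM in cKO, against 37.1, 36.7 and 44.0 FPKM in control, at an adjusted p of 0.0483.

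Among 13 thioredoxin and peroxiredoxin genes 1 (7.69%) fell and none rose, against 2.09% and 2.24% of all genes. The gene that fell was Prdx4, a peroxidase of the endoplasmic reticulum like Gpx7. It measured 87.4, 87.4 and 96.3 FPKM in cKO 1 to 3, against 154, 150 and 125 FPKM in control 1 to 3. Its log2 change was -0.65 (standard error 0.10, adjusted p = 0.0240). Control 3 was the lowest control and cKO 3 the highest cKO library, as for Gpx7.

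No gene passed in the other 5 lists, for NADPH supply (9 tested), glutaredoxins and glyoxalases (9), superoxide dismutases and catalase (5), other proteins of the transferase fold or the MAPEG family (9) and selenoprotein synthesis (8). Their 2 most abundant genes each were Idh2 and Tkt, Pdia3 and Esd, Sod1 and Cat, Eef1g and Clic1, and Sepp1 and Sephs1. Of these, Pdia3, a disulfide isomerase gene, had the smallest adjusted p by limma, 0.0993. It measured 345 ± 42.7 FPKM in cKO and 439 ± 12.2 FPKM in control (SD, n = 3 each). Nnt, a less abundant gene of the NADPH list, had a smaller adjusted p, 0.0789. Nnt measured 13.4 ± 0.250 FPKM in cKO and 17.8 ± 2.16 FPKM in control. Sod1, the superoxide dismutase of the cytosol, measured 663 ± 64.4 FPKM in cKO and 679 ± 20.0 FPKM in control. Of all genes 4.33% passed, so lists this short can hold no call at that share. In the glutaredoxin list 4 of 9 genes were lower in cKO with no overlap of the groups, against 12.0% of all genes. Only 1 of its 9 log2 changes was positive. By the same measure the NADPH list had 2 genes higher and 1 lower, and the transferase fold list 1 lower. The lists for superoxide dismutases and for selenoprotein synthesis had none.

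**Figure D5:**
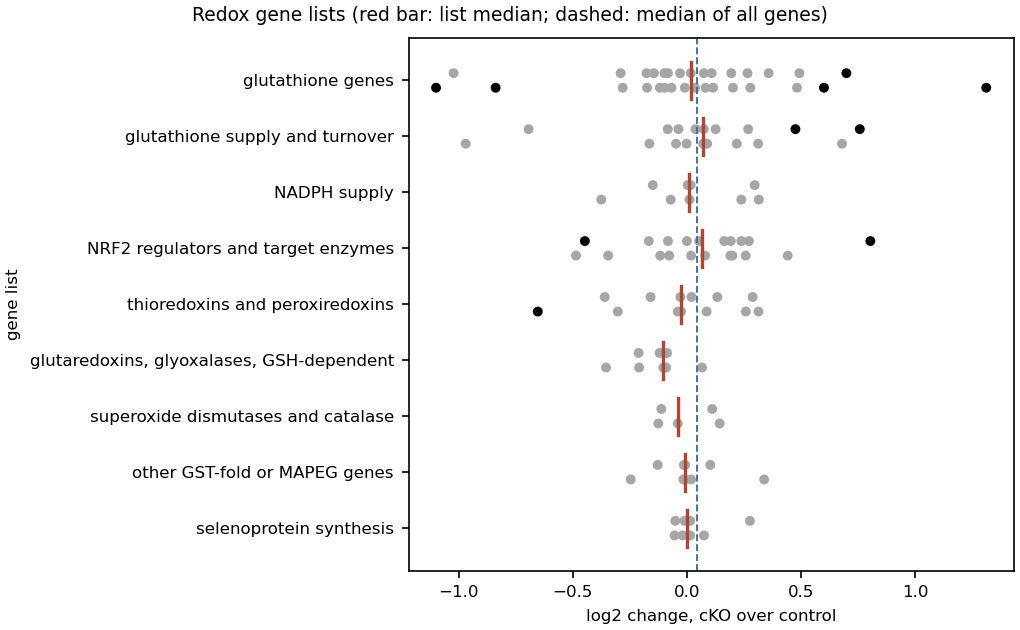
Log2 change, cKO over control, of each tested gene in the 31 glutathione genes and in 8 related lists; GSH is glutathione. Black points have an adjusted p below 0.05, red bars are list medians, and the dashed line is the median of all genes, 0.05. Black points stand in the glutathione genes and in the lists for glutathione supply, NRF2, and thioredoxins and peroxiredoxins.

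The antioxidant response element, bound by NRF2, was looked for as TGACNNNGC on both strands in RefSeq promoter windows of GRCm38.p6, from 250 bases before to 50 bases after each start. Windows were found for 32 of the 36 genes. A match stood in 5 of these 32 genes (15.6%), against 3781 of all 27025 genes in the table (14.0%). The 5 genes were Gclm, Gsta3, Gstm5, Gstm7 and Mgst1, none of which passed the test. The 60 bases around each match are shown along the gene with the match in capitals, as the only such matches in these windows.
Gclm: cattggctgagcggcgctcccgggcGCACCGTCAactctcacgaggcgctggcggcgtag
Gsta3: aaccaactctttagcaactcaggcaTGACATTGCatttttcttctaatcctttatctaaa
Gstm5: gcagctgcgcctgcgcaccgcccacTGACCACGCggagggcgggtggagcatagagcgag
Gstm7: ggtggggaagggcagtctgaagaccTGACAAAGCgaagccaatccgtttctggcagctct
Mgst1: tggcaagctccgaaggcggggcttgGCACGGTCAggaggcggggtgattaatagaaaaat

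These stretches lie at chr3:122245398-122245457 (plus strand, Gclm), chr1:21240439-21240498 (plus, Gsta3), chr3:107895787-107895846 (plus, Gstm5), chr3:107931709-107931768 (minus, Gstm7) and chr6:138140446-138140505 (plus, Mgst1). The windows of Gstm6, Gstm2, Gsta2 and Gpx7 held no match to these letters. Gsta4, Gclc, Gsr and Gstt2 were not matched to a window. Nfe2l2, which encodes NRF2, measured 75.8 ± 6.60 FPKM in cKO and 65.8 ± 2.61 FPKM in control (SD, n = 3 each), at an adjusted p of 0.207 by limma.

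Markers of ovarian cell types differed between the groups alongside these genes, and their counts stand against 2.24% of all genes that rose and 2.09% that fell. Of 12 granulosa markers 5 fell and none rose, with a summed level of 2127 to 2535 FPKM in cKO and 3347 to 4314 FPKM in control. Inha alone had a mean of 1265 FPKM in cKO and 2017 FPKM in control. These markers did not all move alike. With no overlap of the groups, 7 were lower in cKO and 2, Foxl2 and Kitl, were higher. Among all genes 12.0% were lower and 18.0% higher in this way. Of 12 oocyte markers 4 rose and none fell, and the sum was 1848 to 2844 FPKM in cKO and 1349 to 1503 FPKM in control. With no overlap of the groups, 8 oocyte markers were higher in cKO and 0 lower. Bmp15 and Oosp1 had negative log2 changes, of -0.67 and -0.05, and their groups overlapped. Of 8 stroma markers 2 rose, with sums of 1131 to 1536 FPKM in cKO and 885 to 991 FPKM in control. Of 8 Sertoli markers 2 rose, with sums of 136 to 174 FPKM in cKO and 107 to 119 FPKM in control. With no overlap of the groups, 4 Sertoli markers were higher in cKO and 1, Dhh, was lower. In these 4 lists every marker was tested, so none had a mean below 0.5 FPKM.

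Of the 6 mast cell markers tested, 5 rose, with a sum over 8 of 40.2 to 73.5 FPKM in cKO and 19.1 to 28.3 FPKM in control; the receptor genes Ms4a2 and Fcer1a were below 0.5 FPKM in every library. None of 8 theca and steroidogenic markers passed, with sums of 1569 to 1979 FPKM in cKO and 1492 to 1729 FPKM in control. None of 8 endothelial markers passed, with sums of 170 to 180 FPKM in cKO and 142 to 154 FPKM in control, and none of 8 surface epithelium markers, with sums of 101 to 252 FPKM in cKO and 138 to 148 FPKM in control. None of 8 macrophage markers passed, with sums of 30.9 to 64.3 FPKM in cKO and 28.6 to 40.0 FPKM in control. None of 4 tested oviduct markers passed, with sums over 5 of 3.76 to 8.16 FPKM in cKO and 3.02 to 5.46 FPKM in control. The sum of 8 adipose markers was 16.8 to 17.8 FPKM in cKO and 15.5, 16.2 and 41.1 FPKM in control 1 to 3, and 1 of the 6 tested, Plin1, rose. The other 5 had negative log2 changes and did not pass; Fabp4 was at -1.21 and Cfd at -1.47, with adjusted p-values of 0.0890 and 0.178 by limma. The sum of 6 erythroid genes was 772 to 3602 FPKM in cKO and 1700 to 5441 FPKM in control, and 8 neutrophil genes summed to 644 FPKM in cKO 3 and to at most 1.30 FPKM in any other library; neither list had a gene that passed. The part of these cell types in the changes of the glutathione genes was not tested.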

How the data were processed

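Transcript levels were measured in 6 libraries of pooled ovaries, 3 cKO and 3 control, grouped by the genotype label. The values deposited by the authors are FPKM per Ensembl gene. Per the submitters' processing notes, TopHat2 2.0, Cufflinks 2.0 and the build mm10 were used, without saying for what. Annotation, read length, strand setting and scaling: not given in the sources used here. No counts were used, so FPKM were tested as log2(FPKM + 1) by the linear models of limma 3.58.1 (R 4.3.3), moderated with a mean trend, for genes with a mean of at least 0.5 FPKM. The pseudocount of 1 understates the change of low genes. Depth was estimated from FPKM below 0.15 in genes with 1 transcript of at least 1500 bases, less 150 bases, each read as 1 fragment; no interval rests on it. The procedure was run on simulated data with independent normal noise of the fitted size. That run could not show effects of single libraries or of scaling. Positions and transcript sequences are from GENCODE M21.

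Every glutathione gene with a mean of at least 0.5 FPKM is named. From each related list, at least the genes that passed or the 2 most abundant are named. Members and lists were chosen with earlier results of these data known. Libraries were numbered in order of deposit. Alternatives were pseudocounts of 0.1 and 0.5, no filter, a mean of at least 2 FPKM, quantile normalisation, median centring, mitochondrial transcripts left out, array weights, robust eBayes, each library left out, control 3 and cKO 3 left out, and cKO 1 against the controls. The floxed gene is not reported here, so the genotype labels were not checked from it.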

Additional observations from a re-analysis of the deposited data

How the results depend on the processing

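No paired analysis was possible because no label numbers the replicates; library numbers are names alone. Of the glutathione genes, 3 rose and 2 fell as reported. With no filter, where 23854 genes were tested, 0 rose and 0 fell by limma (all genes: 4 and 24). There 6 were higher and 4 lower at an unadjusted p below 0.05, a level at which all genes were not counted. With array weights 6 rose, Gstm1, Gstm7 and Gstt3 among them, while of all genes 1041 rose and 743 fell. With median centring 4 fell, Gstk1 and Mgst2 among them, while of all genes 254 rose and 577 fell. The reported fit had 334 and 312 of all genes, so calls beyond the glutathione genes grew in these settings too. With control 3 and cKO 3 left out 0 rose and 3 fell, and with cKO 1 against the controls 1 rose and 0 fell. With 1 library left out, 0 to 2 rose and 0 to 2 fell. Of the related genes, 3 rose and 2 fell as reported. The counts were 0 and 0 with no filter and 1 and 1 with quantile normalisation. They were 1 and 6 with median centring and 6 and 9 with array weights, beside the all-gene counts above. With control 3 and cKO 3 left out 1 rose, and with cKO 1 against the controls 0 rose and 0 fell. With 1 library left out, 0 to 3 rose and 0 to 2 fell. The causes were not tested.

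Scaling moved the split of calls over all genes from 334 higher and 312 lower to 270 and 421 by quantile normalisation, 254 and 577 by median centring and 455 and 304 without mitochondrial transcripts. Over 526 refits of single glutathione genes, 26 changed sign, all in genes that did not pass. With median centring Gclc was at -0.029 and Gstm4 at -0.048, and Gstm4 was at -0.074 with quantile normalisation. Gstp1 was at 0.094 with quantile normalisation and at 0.05 without mitochondrial transcripts. Gstp2 was at 0.028 with the latter and 0.028 with array weights. With control 3 and cKO 3 left out Gpx6 was at -0.48, Gstm4 at -0.10 and Gstm5 at -0.0083. With cKO 1 against the controls Gclc was at -0.013, Gpx6 at -0.71, Gstm5 at -0.00084, Gstp1 at 0.080 and Gstp2 at 0.047. With 1 library left out, Gclc ran from -0.012 to 0.091, Gclm from -0.29 to 0.013, Gpx3 from -0.015 to 0.14, Gpx6 from -0.20 to 0.77, Gstm4 from -0.14 to 0.16, Gstp1 from -0.067 to 0.087 and Gstp2 from -0.087 to 0.066. In low genes such as Gstm3 and Mgst2, a pseudocount of 1 understates changes.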
